A study of Mus musculus with 2 samples.

Results

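The miR-103 and miR-107 family of the mouse consists of 3 microRNA (miRNA) genes, Mir107, Mir103-2 and Mir103-1, chosen by gene name from the 2202 miRNA genes of the annotation. Each lies in an intron of a pantothenate kinase gene. Reads were counted in 2 libraries of small RNA, with a labelled size range below 30 and no unit given, made from total RNA of the adrenal gland. All came from 1 group of adult female mice of strain 5xFAD/CAST, aged 8 to 10 months. 5xFAD mice serve as a model of Alzheimer's disease, with transgenes driven by the Thy1 promoter, which is active in neurons, while CAST is a strain derived from wild mice. The labels do not give the transgene state of single animals. The libraries are labelled biological replicates 1 and 2 and have separate biosamples but the same donor identifier, so their spread may be partly technical. There is no second condition, so the family is described by its levels, by what sets its genes apart in sequence and by the difference between the libraries.

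Pantothenate kinases phosphorylate vitamin B5 in the opening step of coenzyme A synthesis. Coenzyme A is needed to build fatty acids and cholesterol, and the adrenal cortex uses cholesterol to make steroid hormones. miR-103 and miR-107 are known from work in mouse liver and fat as repressors of caveolin-1 and of insulin sensitivity, and from cancer cells as repressors of Dicer, the enzyme that cuts miRNA precursors. A miRNA hairpin has a 5p and a 3p arm, and bases 2 to 8 of the mature strand, its seed, pair with target messages. In this family the 3p arm is the strand known for these roles.

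The mature sequences decide which reads can be told apart, and so they are given first. They are from RefSeq (build GRCm38.p6), which held all 3 genes, and are written 5′ to 3′. In the 3p arms below the capitals mark the seed.
miR-107-3p (Mir107): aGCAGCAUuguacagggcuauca
miR-103-3p (Mir103-2 and Mir103-1): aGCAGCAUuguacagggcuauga
Mir103-2 and Mir103-1 encode the same 3p strand, and miR-107-3p differs from it by G22C, counted from 1 at the 5′ end of miR-103-3p. RefSeq mature sequences were matched by position to 958 of the 2202 genes, and among these the seed GCAGCAU occurred in these 3 genes and in no other.

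The 5p arms are set out next, with capitals at the bases that differ among the 3 genes.
miR-107-5p (Mir107): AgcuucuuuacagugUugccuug
miR-103-2-5p (Mir103-2): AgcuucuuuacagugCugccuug
miR-103-1-5p (Mir103-1): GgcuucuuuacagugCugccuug
Against miR-103-2-5p, counted from its 5′ end, miR-107-5p carries C16U and miR-103-1-5p carries A1G. Each gene therefore has a 5p strand of its own, while the seed of the 5p arm is common to all 3.

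The whole hairpins show where the genes diverge, with the mature arms in capitals.
Mir107: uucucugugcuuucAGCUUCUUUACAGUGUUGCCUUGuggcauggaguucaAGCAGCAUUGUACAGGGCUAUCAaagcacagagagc
Mir103-2: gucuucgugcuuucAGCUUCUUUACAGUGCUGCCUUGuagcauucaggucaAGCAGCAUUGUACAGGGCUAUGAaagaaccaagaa
Mir103-1: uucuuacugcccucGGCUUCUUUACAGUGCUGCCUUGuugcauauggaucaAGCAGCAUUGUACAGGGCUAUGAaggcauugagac
Mir107 and Mir103-2 were the most alike over the full hairpin, with 83.9% identical bases in a global alignment, against 80.5% for Mir107 and Mir103-1 and 80.2% for Mir103-2 and Mir103-1. The longest unbroken run was shared by the Mir103 copies, at 27 bases, and both copies shared a run of 24 bases with Mir107. These runs begin 3 bases before the 3p arm.

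The places of the genes in their hosts are alike. Mir107 (ENSMUSG00000065594.1) lies on the minus strand of chromosome 19 at 34820687 to 34820773 (build mm10) in Pank1, Mir103-2 (ENSMUSG00000065563.1) on the plus strand of chromosome 2 at 131288052 to 131288137 in Pank2, and Mir103-1 (ENSMUSG00000065553.1) on the plus strand of chromosome 11 at 35782396 to 35782481 in Pank3. In each case the host is read from the same strand, and in the principal transcript, which has 7 exons in all 3 hosts, the miRNA sits in intron 5. It begins 326 bases after the upstream exon in Pank1, 454 bases in Pank2 and 688 bases in Pank3. The intron itself measures 7282, 5801 and 1740 bases in these hosts. No annotated transcript of the hosts has the hairpin in an exon, and the host is the only other gene annotated over each hairpin. Host messages were not measured here.

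Before the levels, the libraries and the tissue are placed. Replicate 2 held 6924829 reads on miRNA genes in the count column of 1 strand, and replicate 1 held 3635851. Each level below is in CPM, or reads on the gene per 1000000 such reads, and a count of 0, which allows up to 3 reads, would allow 0.433 CPM in replicate 2 and 0.825 CPM in replicate 1. Mir375, known from endocrine cells, stood at 45225 ± 1738 CPM (SD, n = 2) and Mir126a of blood vessels at 49108 ± 10714 CPM. Mir375 was the highest of 4 endocrine genes listed, and the lowest, Mir7-2, averaged 82.1 CPM. Of the 3 genes listed for the adrenal cortex, Mir34a was lowest at 3145 ± 330 CPM and Mir21a highest at 20539 ± 10653 CPM. Mir125a lay between them at 15118 ± 9118 CPM. Mir21a was higher and Mir125a lower in replicate 2. Red-cell miRNAs were present, with Mir451a at 265 ± 162 CPM and Mir144 at 36.2 ± 16.5 CPM. Mir122 of liver stood at 93.3 ± 21.5 CPM. That is near 94.57 CPM, the median of the 356 genes with 10 or more reads in each library. Markers of other tissues stood lower. The highest of 4 kidney and intestine genes, Mir192, averaged 22.95 CPM. The highest of 8 striated muscle genes averaged 3.61 CPM and the highest of 3 pancreas genes 0.918 CPM. In bulk tissue, fewer cells of a type and less RNA per cell cannot be told apart.

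Mir107 carried nearly all reads counted on the family. It had 11774 reads in replicate 2 and 7108 in replicate 1, or 1700 and 1955 CPM, a mean of 1828 ± 180 CPM (SD, n = 2). Mir103-2 had 89 and 57 reads, or 12.9 and 15.7 CPM, a mean of 14.3 ± 2.00 CPM. The ranges of these genes were far apart, and both libraries gave the same order. Mir103-1 came last with 24 reads in replicate 2 and 8 in replicate 1, or 3.47 and 2.20 CPM, a mean of 2.83 ± 0.895 CPM.

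**Figure D1:**
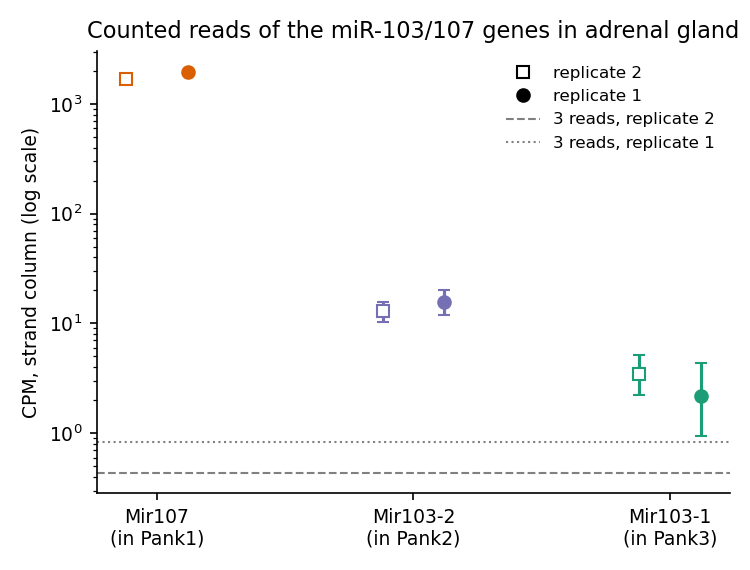
CPM of Mir107, Mir103-2 and Mir103-1 on a log axis, replicate 2 as open squares and replicate 1 as filled circles, with exact Poisson 95% intervals for counting error and lines at the level of 3 reads in each library. The levels fall from a mean of 1828 CPM for Mir107 to 14.3 for Mir103-2 and 2.83 for Mir103-1, and the intervals of different genes do not overlap.

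The gaps between the genes were larger than counting error in each library. Mir107 exceeded Mir103-2 by 132 times in replicate 2 (exact 95% interval 107.4 to 164.9) and by 125 times in replicate 1 (96.1 to 164.8). Mir103-2 exceeded Mir103-1 by 3.71 times in replicate 2 (2.34 to 6.09) and by 7.13 times in replicate 1 (3.38 to 17.3). The intervals of the 2 libraries overlap for both ratios, and each lies wholly above 1. PCR copies without molecular tags are not independent molecules, so these intervals cover counting error only.

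As shares, Mir107 made up 99.0% of the reads of the 3 genes in replicate 2, with an exact Clopper-Pearson interval at 95% of 98.9 to 99.2%. In replicate 1 it made up 99.1%, with limits of 98.8 and 99.3%. Reads counted on the 3 genes made up 0.172% of those counted on miRNA genes in replicate 2 (0.169 to 0.175%). In replicate 1 they made up 0.197% (0.193 to 0.202%). A gene was called detected from 10 reads in each library on, which put Mir107 and Mir103-2 among 356 detected genes, while Mir103-1 missed the limit in replicate 1. With 1 read required in each, all 3 passed. The column of both strands gave the same read numbers for all 3 genes, and the column of the opposite strand gave 0 for each in both libraries.

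These counts can leave out reads of the family's main strand. The tables assign no gene to reads with several genomic matches, and these multimapping reads numbered 5165270 in replicate 2 and 2454066 in replicate 1, or 33.6% and 31.6% of all reads. The tables do not say which miRNAs they came from. To see which family reads can be assigned at all, every stretch of 16 to 29 bases of the 3 hairpins was looked up in both strands of the 2202 annotated miRNA genes. The match had to be exact, and the rest of the genome was not searched.

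A full miR-103-3p read of 23 bases matched both Mir103-2 and Mir103-1. Reads from its first base matched a single gene only from 25 bases on, where they run past the annotated end into the part that differs between the copies. The same reads of 20 bases also matched Mir107. Under exact matching, a miR-103-3p molecule of the annotated length is thus counted for neither of its genes.

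miR-107-3p stood in between. Its reads matched Mir107 alone from 22 bases on, because the base that sets it apart, G22C, is next to its last. At 21 bases or fewer such reads matched all 3 genes. The Mir107 count therefore leaves out its own shorter 3p reads.

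The 5p arms behaved otherwise. From its first base, each 5p strand matched its own gene alone at 16 bases, the shortest length looked up. A start 1 base later made the 5p reads of the Mir103 copies match each other up to 23 bases, while those of Mir107 stayed apart at 16. Reads of the Mir103 copies in the tables can accordingly come from 5p strands, from 3p strands with bases added at the end or from other parts of the hairpin. Counts per gene do not separate these. After the 3p arm Mir103-2 continues with aa and Mir103-1 with ag. A miR-103-3p read with aa added there would thus match Mir103-2 alone, even if those bases were not copied from the gene.

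**Figure D2:**
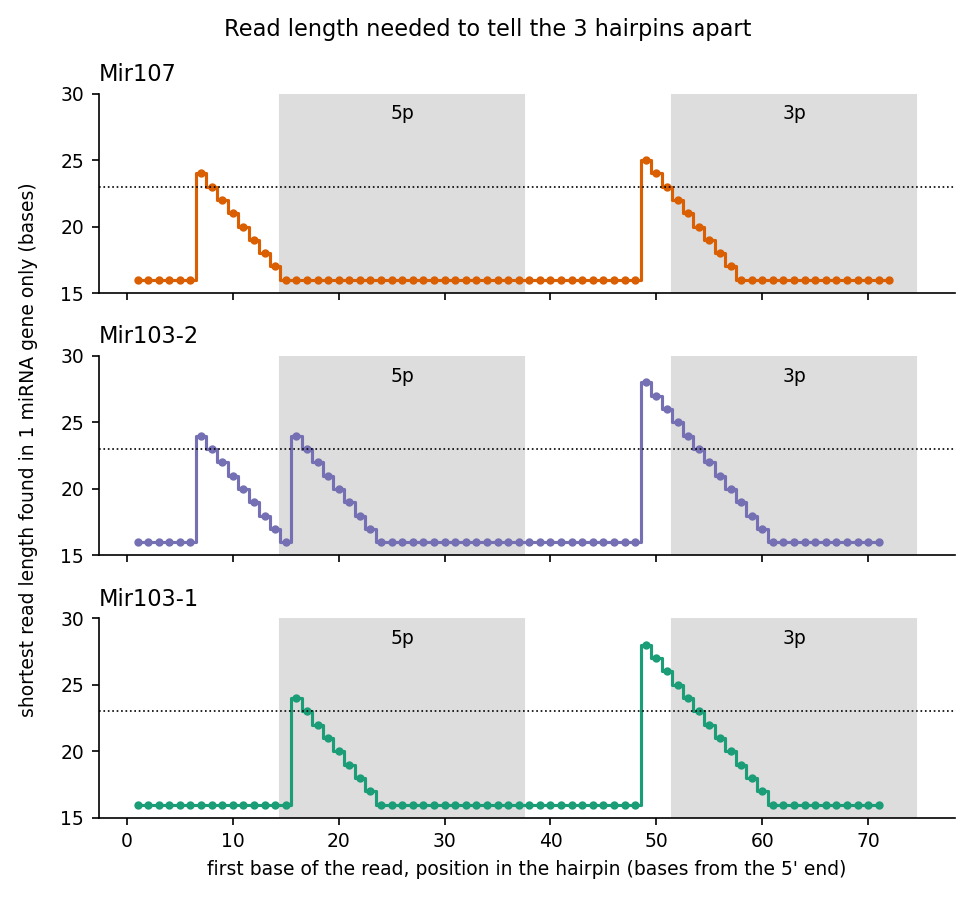
Shortest exact read length in bases (vertical axis) that is found in 1 of the 2202 miRNA genes only, by the first base of the read in the hairpin (horizontal axis), for Mir107, Mir103-2 and Mir103-1, with the arms shaded and a dotted line at 23 bases, the length of the annotated arms. At the first base of the 3p arm the line stands at 22 bases for Mir107 and at 25 for both Mir103 copies, while at the first base of the 5p arm it stands at 16 for all 3.

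Counted over the whole hairpin, the loss is narrow in position. Of the stretches of 22 bases, 61 of 66 were unique in Mir107, 55 of 65 in Mir103-2 and 57 of 65 in Mir103-1. In the Mir103 copies the shared stretches include the one at the first base of the 3p arm. In Mir107 they begin at bases 7, 8, 49, 50 and 51 of the hairpin, and the one at the first base of its 3p arm was unique. The level of Mir107 against the Mir103 copies given above thus compares reads that could be assigned, not the amounts of miR-107 and miR-103. The share of the 3 genes in the miRNA reads likewise covers assigned reads only.

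The family was set against other genes with shared mature strands. Each mature strand that the RefSeq table lists was looked up by sequence in the miRNA genes, and 324 of the 356 detected genes held at least 1 of them. The table does not list both strands for every gene, so a strand missing from it cannot be seen as shared. In 50 of the 324 genes, Mir103-2 among them, at least 1 strand also lay in a miRNA gene elsewhere, and their mean CPM ran from 3.02 to 3986 with a median of 77.1. In the other 274 genes, Mir107 among them, no listed strand did, and their median was 113.8 CPM. A level of at least 1000 CPM was reached by 2 of the 50 genes and by 67 of the 274. Mir103-2 was low among the 50, with 11 of them below it, and Mir107 was high among the 274, with 47 above it. These are descriptions without a test, and Mir103-1, which was not detected, is not among them.

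**Figure D3:**
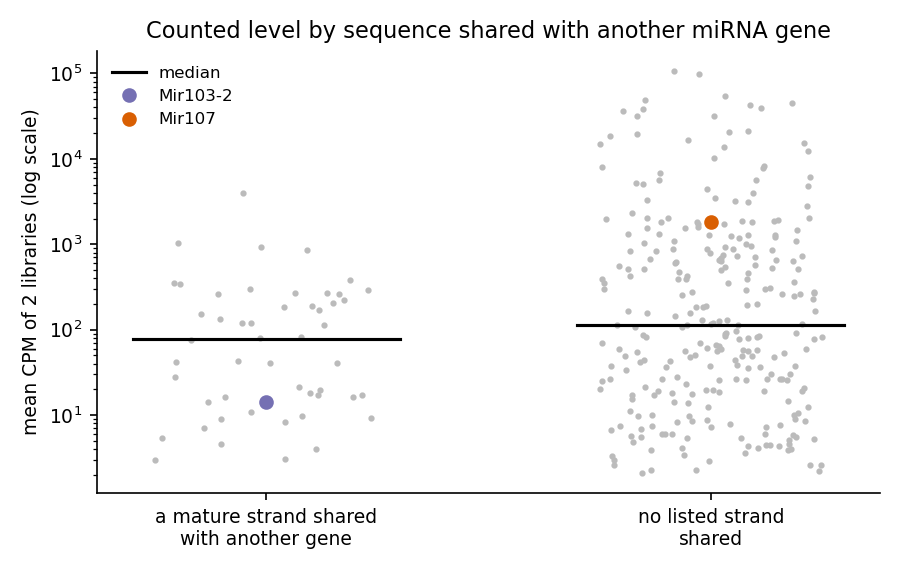
Mean CPM of 2 libraries on a log axis for 324 detected genes, grouped by whether a mature strand listed by RefSeq also lies in another miRNA gene, with 1 point per gene, a bar at the median and Mir103-2 and Mir107 in color. The medians are 77.1 CPM with a shared strand and 113.8 CPM without, and Mir103-2 stands below the median of its group and Mir107 above that of its own.

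Among all detected genes Mir107 ranked 55 of 356 by mean CPM, with 84.6% of them below it. By mean log2 CPM over the 2 libraries its nearest neighbors above were Mir335, from the imprinted Mest gene, and Mir140, known from cartilage. Mir335 had 1763 CPM in replicate 2 and 1890 CPM in replicate 1, and Mir140 had 2889 and 1154 CPM. The nearest below were Mir423 with 1477 and 2208 CPM and Mir221, known to repress a cell-cycle inhibitor, with 1745 and 1740 CPM. Of the 4, Mir221 was the farthest from Mir107, with a difference in mean log2 CPM of -0.07, and the range of Mir107 over the libraries overlapped those of the 4. Mir103-2 ranked 279, next to Mir302c and Mir147 above and Mir8114 and Mir505 below. These 4 averaged 13.8 to 15.5 CPM, and the farthest, Mir505, differed from Mir103-2 by -0.10 in mean log2 CPM. The order among such neighbors is not resolved by 2 libraries.

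A wider group, which includes miR-15, miR-16 and their relatives, shares the letters AGCAGC near the 5′ end. The letters begin at base 1 in miR-103-3p and miR-107-3p and at base 2 in the relatives where they were found, so that their place differs by 1 base. For Mir15a and Mir497b, which are also on the list of relatives, no mature sequence with these letters was matched. RefSeq does not list both strands for every gene, so this does not show that the letters are absent there. The letters stand in capitals below.
miR-107-3p (Mir107): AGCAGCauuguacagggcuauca
miR-322-5p (Mir322): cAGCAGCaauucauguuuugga
miR-195a-5p (Mir195a): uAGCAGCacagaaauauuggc
Of the 10 relatives listed, 8 were detected. Mir322, known from muscle differentiation and the cell cycle, had 9273 CPM in replicate 2 and 11053 CPM in replicate 1, a mean of 10163 ± 1259 CPM (SD, n = 2), and so stood above Mir107. Mir15a, a repressor of the cell-death inhibitor Bcl2 in human leukemia, had 819 and 1661 CPM, and Mir195a had 732 and 531 CPM. The other 5 detected relatives averaged 119 to 460 CPM. Mir16-1 and Mir16-2 encode the same 5p strand and are both among the detected genes with a shared strand, so their counts can leave out reads of it. The read lengths that tell them apart were not looked up. Mir497, at 390 ± 211 CPM, had no read in the column of both strands, where it overlaps Mir497b on the opposite strand.

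**Figure D4:**
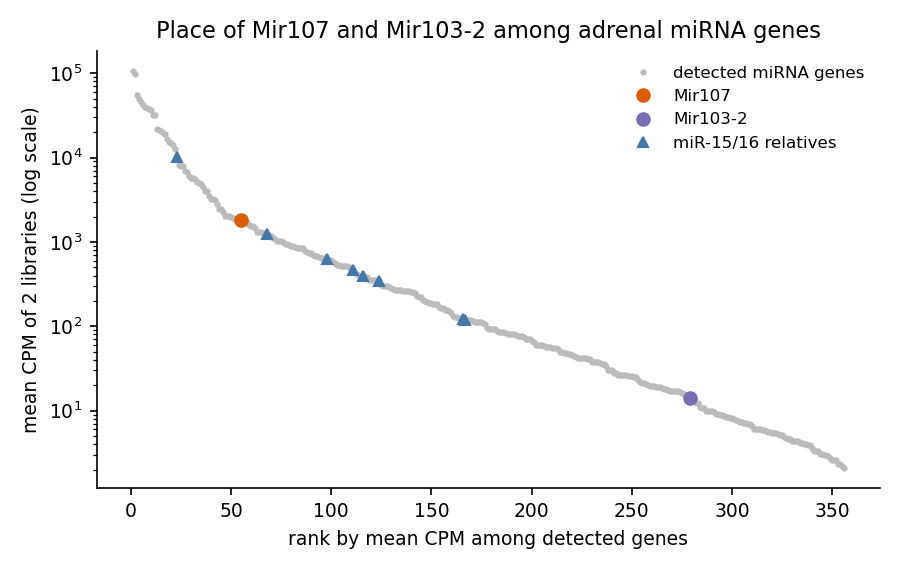
Mean CPM of 2 libraries on a log axis against rank for the 356 detected miRNA genes in gray, with Mir107, Mir103-2 and 8 relatives of the miR-15/16 group in color. Mir107 stands at rank 55 and Mir103-2 at rank 279, and Mir322 is the relative above Mir107.

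The last comparison was between the libraries. Mir107 had a log2 ratio of CPM, replicate 2 over replicate 1, of -0.20 and was called lower in replicate 2 by a two-sided Fisher's exact test (adjusted p = 1.06e-19, by Benjamini-Hochberg over 455 genes). Mir103-2 had a log2 ratio of -0.29 (adjusted p = 0.362) and Mir103-1 of 0.60 (adjusted p = 0.471), and neither was called by that test. Over all 455 genes the test called 52.5%, with 35.6% lower and 16.9% higher in replicate 2, so that 1 called gene of 3 is no more than the background. The test knows counting error alone, and it sets library against library, since there are no conditions.

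The call of Mir107 rested on scaling. The median log2 ratio of the detected genes was -0.19, and TMM normalization moved every ratio by 0.20, which left Mir107 at -0.0018 (exact binomial test, adjusted p = 0.982). The exact test of edgeR called 5 of 455 genes, or 1.1%, and gave all 3 genes an adjusted p of 1. Its dispersion was estimated from the same 2 libraries that it compares, so few calls are built into it and nothing is read from them here.

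The red-cell miRNAs also differed between the libraries. Mir451a had 150 CPM in replicate 2 and 380 CPM in replicate 1, and Mir144 had 24.5 and 47.9 CPM. Both were called lower in replicate 2 by Fisher's exact test and also with TMM normalization. Over all 455 genes, 35.6% were called lower by Fisher's exact test, and 116 genes were with TMM. Listed markers of the cortex differed as well, with log2 ratios of 1.11 for Mir21a and -1.31 for Mir125a. Nothing is thus read as particular to red cells, and the part of their miRNAs in the difference of Mir107 was not tested.

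**Figure D5:**
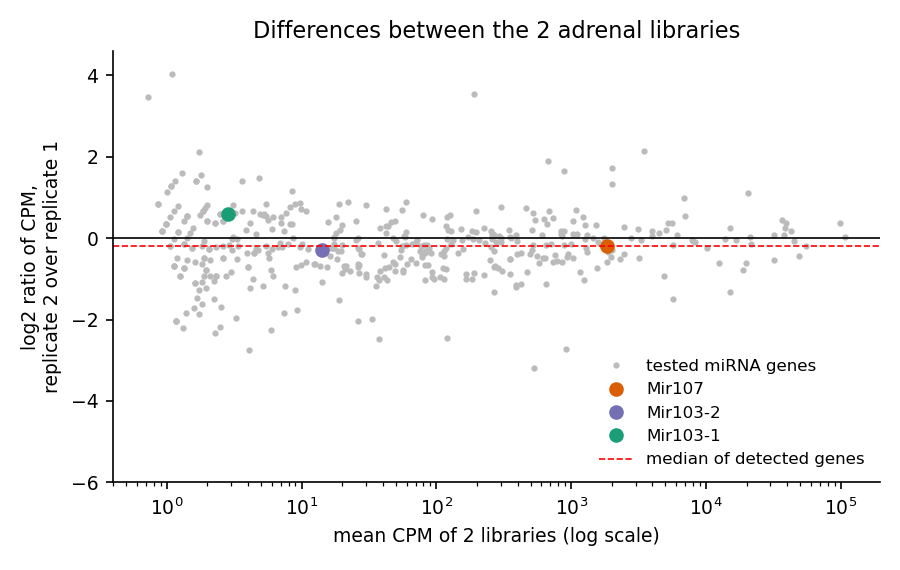
Log2 ratio of CPM, replicate 2 over replicate 1, against mean CPM on a log axis for 455 tested miRNA genes in gray, with Mir107, Mir103-2 and Mir103-1 in color, a line at 0 and a dashed line at the median of the detected genes. Mir107 at -0.20 lies on the dashed line at -0.19, while Mir103-2 at -0.29 and Mir103-1 at 0.60 lie within the scatter of genes of like level.

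The split of reads within the family, which does not depend on scaling, was compared between the libraries for the 3 pairs of genes. The ratio of Mir107 to Mir103-2 was 1.06 times as high in replicate 2 as in replicate 1 (Fisher's exact test, two-sided, adjusted over 3 pairs, p = 0.732). For Mir107 to Mir103-1 the factor was 0.552 and for Mir103-2 to Mir103-1 it was 0.520 (Fisher's exact test, adjusted p = 0.238 for both). With 8 reads of Mir103-1 in replicate 1, a difference of this size was not called, and the size that this depth could detect was not calculated.

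Of the 8 listed relatives tested, 4 were called higher and 3 lower in replicate 2 by Fisher's exact test. The other 1 was not called, and the median log2 ratio was 0.09 against -0.18 over all 455 genes. Over these 455 genes the test called 52.5%, with 16.9% higher and 35.6% lower, and that split moves with scaling, to 124 higher and 116 lower genes with TMM normalization. With TMM the relatives again counted 4 higher, 3 lower and 1 not called, at a median of 0.29 against 0.02 over all genes. Mir15a had a log2 ratio of -1.02, or -0.82 with TMM, and Mir15b of 0.74, or 0.94 with TMM. Mir322 had -0.25, or -0.05 with TMM. With 8 genes in 2 libraries, nothing is read from this as particular to the group.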

How the data were processed

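The authors deposited raw counts, in 1 table for each library, over 2202 miRNA genes in 3 unnamed columns. Assembly mm10 and annotation GENCODE M21 are named in the deposited notes. How reads were trimmed, aligned and assigned was not given in the sources used here. From the values, the columns were read as both strands, 1 strand and the opposite strand. The column of 1 strand is the main one. Its entries without a gene, 55.0% of all reads for replicate 2 and 53.2% for replicate 1, were kept out of totals and tests.

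CPM used the miRNA-gene total. Fisher's exact test compared replicate 2 with replicate 1 where a gene had 10 or more reads over both, and the log2 ratio added 0.5 reads. The dispersion for edgeR's exact test came from an intercept-only model over 356 detected genes (coefficient of variation 31.2%). edgeR's quasi-likelihood test was not used, as 1 group leaves no contrast. Fisher's exact test and the log2 ratio were tried on simulated counts with Poisson counting error alone and the real library totals. The other procedures were not tried on simulated data, and neither spread beyond counting error nor a shift in scaling was simulated. Genes named outside the family are the 2 nearest in level on either side of a detected member and the 3 leading relatives, with a few tissue markers, and Mir497, Mir15b, Mir16-1 and Mir16-2 were named after their values were seen. The family and lists were chosen with earlier results of these data known. Alternatives were the column of both strands, other totals, TMM, DESeq2 size factors, other minimums and offsets, and each library alone. The tools were Python 3.11.15 (scipy 1.17.1, numpy 2.4.6, matplotlib 3.10.9, pandas 2.3.3) and R 4.3.3 (DESeq2 1.42.0, edgeR 4.0.16).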

Additional observations from a re-analysis of the deposited data

How the results depend on the processing

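Of 49 recomputed values, 8 moved by more than the limits set for them and 3 lost a call. Of the other 38, the number of detected family genes was 3 in place of 2 when 1 read was required. For levels and shares the limit was the SD of the 2 libraries. Leaving out 1 library cannot move their mean by more than that, so those unmoved values are no check. The offset does not enter Fisher's exact test, so it could not change a call either. The levels moved with the total. With the column of both strands Mir107 stood at 2087 CPM, Mir103-2 at 16.3 CPM and the family at 0.211%. With all reads as the denominator, Mir107 stood at 839.6, Mir103-2 at 6.56 and Mir103-1 at 1.29 per 1000000 reads and the family at 0.0847%. The share of Mir107 in the family stayed between 99.0 and 99.1% in either column and in either library alone. The log2 ratio of Mir107 lost its call with TMM normalization, at -0.0018, with DESeq2 size factors, at -0.025, and by edgeR's exact test, at -0.20. That test called 5 genes in place of 239, and its dispersion comes from the same 2 libraries it compares, so few calls are built into it. Of the 239, 77 were higher and 162 lower in replicate 2, against 124 and 116 with TMM, which turns the majority to higher, and 119 and 121 with DESeq2 size factors. No paired analysis was possible because the samples form 1 group. With 1 library left out, the differences between libraries have no value. Depth limits Mir103-1 most, with 8 reads in replicate 1.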
